A study of Mus musculus with 8 samples.

Results

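The genes described here encode the Wnt signalling route from the secreted ligands to the transcription factors that receive the signal, measured in neural progenitor cells (NPC) and in the mouse embryonic stem cells (ESC) they came from. Members were selected by matching gene names: Wnt, frizzled, Dkk, Sfrp, R-spondin, Lgr4 to Lgr6, dishevelled and Tcf/Lef genes, with Lrp5, Lrp6, Axin1, Axin2, Porcn, Wls, Wif1, Znrf3 and Rnf43. The rule found 60 genes among 21202 named genes of the deposited exon and intron tables, all 60 in the exon table and 54 in the intron table. Frzb, which encodes the secreted frizzled-related protein also called Sfrp3, carries a name the rule did not match and is given with the neighbouring parts of the pathway.

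Wnt proteins are lipid-modified by Porcn and carried to the cell surface by Wls, and they bind frizzled receptors together with the co-receptors Lrp5 and Lrp6. Signalling through dishevelled and Axin keeps beta-catenin from being degraded, and beta-catenin then acts with Tcf/Lef factors on DNA. In mouse ESC cultures this route is known for its part in self-renewal, where Tcf7l1 acts as a repressor, and in the developing brain it is known for patterning and for the expansion of progenitors.

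The NPC group was 1 clone of neural progenitors obtained by differentiation of the hybrid ESC line F1-21.6, whose alleles come from the 129Sv and Cast/EiJ strains. The ESC group was that line itself, kept in medium with 15% FBS and leukaemia inhibitory factor on a layer of mitotically inactivated embryonic fibroblasts, so the ESC RNA may hold fibroblast RNA. Each cell type had 2 biological replicates with 2 technical libraries each, 8 libraries of ribosome-depleted total RNA in all, read as 50 bp single ends. Because only 1 NPC clone was used, the replicates do not cover the spread between clones. The p-values of the intron test rest on the spread between these 2 and 2 samples. They also rest on a trend of spread with level, fitted over all tested genes.

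Exon levels are RPKM, read counts scaled to exon length and library size, which the authors pooled across the libraries of each cell type, so no replicate spread stands beside them, and the read depth behind them is unknown. Their log2 fold changes of NPC over ESC and adjusted p-values come from the authors' deposited table. The fold changes differ from the ratio of the pooled RPKM, and for some low genes the gap is wide. Dkk4 had 0.270 RPKM in NPC and 0.0196 RPKM in ESC, yet its deposited log2 fold change of 2.03 stands for 4.08-fold. It is unknown whether that exon test counted the 2 technical libraries of a replicate as separate samples. The spread behind its adjusted p-values is therefore unknown, and it does not include the spread between clones. A gene is called here when its mean over both cell types was at least 1 RPKM and that adjusted p was below 0.05. Intron RPKM have 1 value per biological replicate, and whole reads could be recovered from them. The reads summed to 6115657 and 5533455 in NPC replicates 1 and 2 and 6210644 and 6997646 in ESC replicates 1 and 2. These sums exceed the read totals inferred from the scaling, 5792056 and 5186790 in NPC and 5767704 and 6500767 in ESC. Where several intron lengths were possible, in 1637 genes, the largest was taken, so those counts may be too high. The source of the excess was not tested. By the authors' deposited table, 8 of 8 ESC markers fell and 7 of 7 NPC markers rose in NPC, which fits both labels. NPC replicate 1 stood apart from the other 3 samples in introns. Introns of 242 chemosensory receptor genes, which neither cell type is known to use, had a median of 0.748 RPKM in NPC replicate 1 and 0.0829 in NPC replicate 2, against 0.0295 and 0 in ESC replicates 1 and 2. The source of these reads was not tested, so low intron values of NPC replicate 1 cannot be assigned to unspliced RNA of the gene. In exons the same family had a 90th percentile of 0.657 RPKM in NPC and 0.0660 in ESC over 1469 genes, and levels near those values are read here as low. In bulk RNA, fewer cells that express a gene and less RNA per cell cannot be told apart.

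In 8 of 11 families, the member with the highest level in NPC was not the one with the highest level in ESC. In the other 3, Lrp6, Dkk3 and Znrf3 led in both. These ranks rest on 1 pooled value per cell type, and some leads were narrow. Axin2 had 35.5 and Axin1 34.6 RPKM in NPC, and Tcf7 had 11.1 and Tcf7l1 9.46 RPKM in ESC. Wnt6 had 2.37 and Wnt5a 1.92 RPKM in ESC, and Rspo3, which led in NPC, was not called. How often the lead differs in other gene families was not tested. Of the 60 genes, 40 had a mean of at least 1 RPKM; 20 of these were higher and 14 lower in NPC, and 6 were not called (Fzd8, Lrp5, Dkk2, Sfrp2, Rspo3 and Tcf7l1). Among all 12509 genes tested in exons, 32.3% were called higher, 33.9% lower and 66.2% either way. The median log2 fold change in the authors' deposited table was 0.62 over the 40 members and -0.07 over all tested genes. The remaining 20 members, 14 ligands among them, lay between 0.0993 and 0.888 RPKM in NPC and between 0.0196 and 1.44 RPKM in ESC, and 16 of these 20 were at or below the 90th percentile of the receptor genes in NPC. None of those 20 had an adjusted p below 0.05 with a higher level in NPC and 2 had one with a lower level, Wnt8a and Lef1; over all 5653 genes of such low level the shares were 11.6% and 2.65%.

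**Figure D1:**
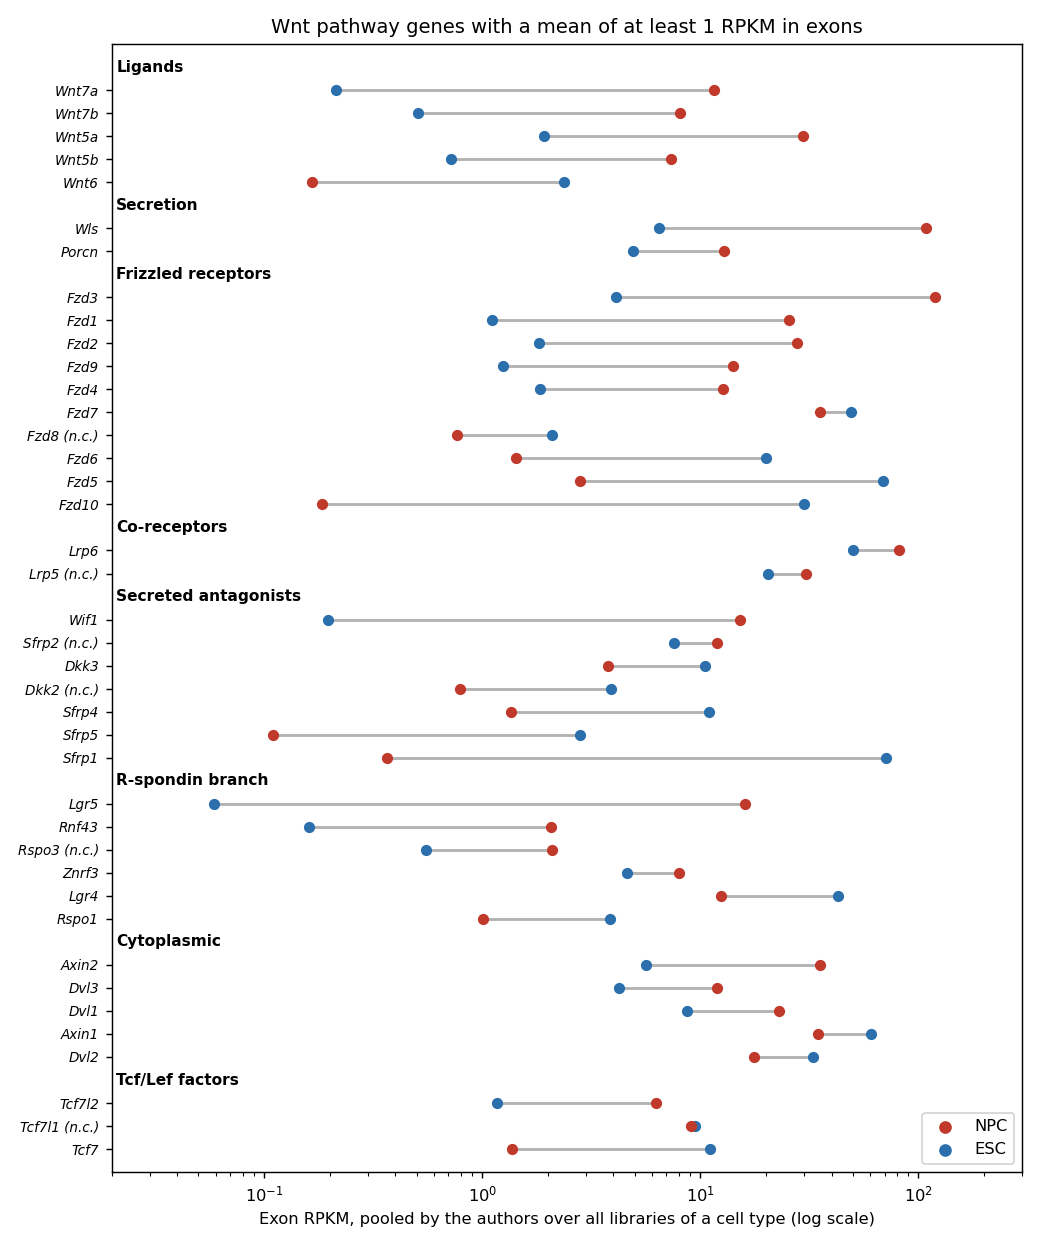
Exon levels of the 40 members with a mean of at least 1 RPKM, in RPKM on a log axis, with NPC in red and ESC in blue and 1 pooled value per cell type; n.c. marks a gene that was not called. Fzd3 and Wls lie above 100 RPKM in NPC, whereas Sfrp1 and Fzd5 are the 2 highest members in ESC, at 71.3 and 69.0 RPKM.

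Promoter windows are shown to place the letters of the Tcf/Lef core in members that changed in either direction. The 250 bases before the annotated start were read for 5 members chosen after their values were seen: Wls, Fzd1 and Axin2, which rose, Wnt5b, which rose and held the longer word, and Fzd10, which fell. They are RefSeq sequences of build GRCm38.p6, shown 5′ to 3′ on the strand of the gene, with capitals marking CTTTG, the core of the Tcf/Lef recognition sequence, or its reverse complement CAAAG. The Wls window is chr3:159839400-159839649 (plus strand), the Fzd1 window chr5:4758217-4758466 (minus strand), the Axin2 window chr11:108920099-108920348 (plus strand), the Wnt5b window chr6:119449387-119449636 (minus strand, 1 of 3 annotated starts) and the Fzd10 window chr5:128600856-128601105 (plus strand).
Wls: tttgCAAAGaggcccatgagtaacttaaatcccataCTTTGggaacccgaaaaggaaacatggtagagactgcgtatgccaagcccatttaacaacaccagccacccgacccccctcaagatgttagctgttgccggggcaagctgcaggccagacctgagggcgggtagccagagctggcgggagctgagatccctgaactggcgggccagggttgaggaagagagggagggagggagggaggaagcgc
Fzd1: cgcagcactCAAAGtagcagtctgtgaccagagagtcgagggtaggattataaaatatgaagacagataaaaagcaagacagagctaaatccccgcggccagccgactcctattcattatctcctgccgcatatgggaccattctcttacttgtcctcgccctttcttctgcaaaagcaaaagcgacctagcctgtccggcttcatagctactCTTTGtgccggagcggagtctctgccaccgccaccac
Axin2: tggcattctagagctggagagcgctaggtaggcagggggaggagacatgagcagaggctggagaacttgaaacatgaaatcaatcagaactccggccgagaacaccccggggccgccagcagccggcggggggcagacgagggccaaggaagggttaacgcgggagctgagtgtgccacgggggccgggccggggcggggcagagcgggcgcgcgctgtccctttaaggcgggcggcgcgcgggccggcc
Wnt5b: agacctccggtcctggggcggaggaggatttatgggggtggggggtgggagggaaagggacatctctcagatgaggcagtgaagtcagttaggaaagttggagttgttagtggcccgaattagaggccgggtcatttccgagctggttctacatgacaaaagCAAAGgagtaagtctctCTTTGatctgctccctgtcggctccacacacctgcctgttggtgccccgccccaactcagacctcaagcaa
Fzd10: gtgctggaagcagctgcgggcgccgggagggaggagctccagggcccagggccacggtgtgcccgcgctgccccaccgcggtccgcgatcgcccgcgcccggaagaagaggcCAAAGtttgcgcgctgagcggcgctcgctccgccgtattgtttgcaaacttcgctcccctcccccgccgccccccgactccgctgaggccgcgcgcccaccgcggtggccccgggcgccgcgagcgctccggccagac
Wls, Fzd1 and this Wnt5b window each held 2 matches to the core, Fzd10 held 1 and the Axin2 window held 0. Of the 60 members, 40 had windows in the RefSeq table, 49 windows in all. CTTTG on either strand occurred in 22 of those 49 (44.9%), against 48.6% of all 32851 windows of the same length. The longer word CTTTGAT, which contains the core, occurred in 2 of 49 (4.08%; Wnt11 and Wnt5b), against 3.21% of all windows. The other 2 Wnt5b windows held 0 and 1 core matches, and the window of Wnt7a, which also rose, held 0; these are not shown. Member windows held a median of 20 CpG dinucleotides and 66.4% G or C, against 6 and 52.4% over all windows. A match is a description of letters and not a bound site, and no match says only that these letters are not in that window.

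Ligand RNA was higher in NPC in sum, and Wnt5a, which had the second highest level in ESC, had the highest in NPC. The 19 Wnt ligands together had 61.4 RPKM in NPC and 11.5 RPKM in ESC. Of the 5 that passed the filter of 1 RPKM, Wnt5a, Wnt5b, Wnt7a and Wnt7b rose and Wnt6 fell. Wnt5a, a ligand best known for signalling that does not use beta-catenin, had 29.7 RPKM in NPC and 1.92 RPKM in ESC, and the authors' deposited table gives a log2 fold change of 3.79 (adjusted p = 2.4e-34). Wnt5b, its close paralog, had 7.38 RPKM in NPC and 0.723 RPKM in ESC, a log2 fold change of 3.17 in the authors' deposited table (adjusted p = 1.66e-09). Wnt7a and Wnt7b, paralogs known from the developing nervous system and its blood vessels, changed together. Wnt7a had 11.6 RPKM in NPC and 0.213 RPKM in ESC, with a log2 fold change of 5.56 in the authors' deposited table (adjusted p = 1.85e-28). Wnt7b had 8.08 RPKM in NPC and 0.508 RPKM in ESC, with a log2 fold change of 3.82 in the authors' deposited table (adjusted p = 4.86e-18).

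Wnt6 was the ligand with the highest ESC level, 2.37 RPKM, and had 0.166 RPKM in NPC, below the 90th percentile of the receptor genes there; its log2 fold change in the authors' deposited table was -3.87 (adjusted p = 0.000132). The other 4 ligands above the filter made up most of the ligand RNA of NPC. Wnt5a alone gave 48.4% of the summed ligand RPKM in NPC and 16.8% in ESC, and Wnt7a gave 18.8% in NPC and 1.86% in ESC. Wnt8a, a ligand of early embryos, had 0.128 RPKM in NPC and 1.44 RPKM in ESC (adjusted p = 0.0196 in the authors' deposited table), and its mean was below 1 RPKM. The other 13 ligands, including Wnt1, Wnt3 and Wnt3a, which are classic activators of beta-catenin signalling, were below 1 RPKM on average. Several Wnt genes lie side by side. By the deposited mm9 positions, the starts of Wnt6 and Wnt10a are 20.1 kb apart on chromosome 1. Only Wnt6 of the pair passed the filter of 1 RPKM, and Wnt10a had an adjusted p of 0.436 in the authors' deposited table. The other 3 neighbouring pairs were Wnt3a with Wnt9a, Wnt9b with Wnt3, and Wnt10b with Wnt1. None of their genes passed the filter, and their adjusted p-values in the authors' deposited table lay between 0.448 and 0.982. Wnt3 and Wnt9b overlap in RefSeq, as do Wnt5b and Fbxl14, and whether counting used strand is not given, so reads of each such pair may be shared.

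The intron values of the ligands ran the same way for 4 of the 5, at low depth. Wnt5a introns had 1.36 and 1.52 RPKM (82 reads each) in NPC replicates 1 and 2, against 0.317 and 0.0889 RPKM (19 and 6 reads) in ESC replicates 1 and 2. Wnt7a introns had 0.980 and 0.650 RPKM in NPC, against 0.0784 and 0.0278 RPKM in ESC. Both NPC samples lay above both ESC samples for Wnt5a, Wnt5b, Wnt7a and Wnt7b, and the groups overlapped for Wnt6. The NPC replicate 1 values of Wnt5b, Wnt7a and Wnt7b were at or below the 90th percentile of receptor gene introns in that sample, 1.22 RPKM, and in NPC replicate 2 Wnt5b (0.276 RPKM) was below the 0.299 RPKM of that sample while Wnt7a and Wnt7b were above it. The part of that background in them was not tested. Over all genes 42.4% had both NPC samples above both ESC samples and 29.2% had both below. In 18 of 19 ligands NPC replicate 1 was above NPC replicate 2. The share of all genes with that order of the NPC replicates was not counted.

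Both genes of Wnt secretion rose. Wls, the carrier that takes Wnt proteins to the cell surface, had 108 RPKM in NPC and 6.47 RPKM in ESC, with a log2 fold change of 3.89 in the authors' deposited table (adjusted p = 2.01e-59). Its introns had 2.35 and 3.90 RPKM in NPC replicates 1 and 2, against 0.397 and 0.468 RPKM in ESC replicates 1 and 2. The groups did not overlap, and limma gave a difference of 1.50 on the log2(RPKM + 1) scale (SE 0.211, adjusted p = 0.000208). Porcn, the acyltransferase that attaches the lipid to Wnt proteins, had 12.8 RPKM in NPC and 4.90 RPKM in ESC, with a log2 fold change of 1.27 in the authors' deposited table (adjusted p = 0.00285). Its introns had 2.99 and 5.36 RPKM in NPC, against 2.38 and 2.17 RPKM in ESC. These did not overlap either, but the limma difference of 0.62 (SE 0.292) was not called (adjusted p = 0.0986).

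Frizzled RNA was of similar size in sum, 240 RPKM in NPC and 180 RPKM in ESC, but its make-up differed almost gene by gene. All 10 frizzleds passed the filter; Fzd1, Fzd2, Fzd3, Fzd4 and Fzd9 rose, Fzd5, Fzd6, Fzd7 and Fzd10 fell, and Fzd8 was not called. Fzd3, a receptor known for axon guidance and planar polarity, had 119 RPKM in NPC and 4.09 RPKM in ESC, with a log2 fold change of 4.71 in the authors' deposited table (adjusted p = 5.16e-86). Fzd3 gave 49.7% of all frizzled RPKM in NPC and 2.27% in ESC. Fzd1 had 25.4 RPKM in NPC and 1.11 RPKM in ESC, with a log2 fold change of 4.34 in the authors' deposited table (adjusted p = 9.54e-41). Fzd2 had 27.8 RPKM in NPC and 1.83 RPKM in ESC, and the log2 fold change in the authors' deposited table was 3.81 (adjusted p = 1.14e-28). Fzd1, Fzd2 and Fzd7 form a closely related subfamily, and Fzd7 ran the other way. Fzd9 had 14.2 RPKM in NPC and 1.24 RPKM in ESC, and Fzd4, also a receptor for norrin, had 12.7 RPKM in NPC and 1.85 RPKM in ESC; their log2 fold changes in the authors' deposited table were 3.36 (adjusted p = 1.66e-12) and 2.61 (adjusted p = 5.12e-13).

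The frizzleds that fell were those that led in ESC. Fzd5 had 2.82 RPKM in NPC and 69.0 RPKM in ESC, with a log2 fold change of -4.78 in the authors' deposited table (adjusted p = 1.19e-98). Its share of frizzled RPKM was 1.18% in NPC and 38.3% in ESC. Fzd10 had 0.185 RPKM in NPC and 30.0 RPKM in ESC, with a log2 fold change of -7.43 in the authors' deposited table (adjusted p = 2.27e-61), and the NPC level lay below the 90th percentile of the receptor genes. Fzd6 had 1.44 RPKM in NPC and 19.9 RPKM in ESC, with a log2 fold change of -3.97 in the authors' deposited table (adjusted p = 4.16e-36). Fzd7, the frizzled most often linked to pluripotent cells, differed least of the called receptors. It had 35.2 RPKM in NPC and 48.9 RPKM in ESC, with a log2 fold change of -0.62 in the authors' deposited table (adjusted p = 0.0159), and it was the frizzled with the second highest level in both cell types. Fzd8 had 0.764 RPKM in NPC and 2.09 RPKM in ESC (log2 fold change -1.50, adjusted p = 0.0535 in the authors' deposited table).

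Introns were listed for 4 frizzleds, since 6 are not in the intron table. Fzd3 introns had 1.76 and 2.31 RPKM in NPC replicates 1 and 2, against 0.397 and 0.293 RPKM in ESC replicates 1 and 2, a limma difference of 1.17 on the log2(RPKM + 1) scale (SE 0.183, adjusted p = 0.000394). Fzd6 introns had 0.827 and 0.187 RPKM in NPC, against 3.50 and 3.59 RPKM in ESC, a difference of -1.63 (SE 0.222, adjusted p = 0.000171). Neither gene's groups overlapped. The single Fzd5 intron is 279 bases long and held 0 and 1 reads in NPC replicates 1 and 2, against 6 and 9 reads in ESC replicates 1 and 2. Its limma difference of -2.03 (SE 0.250, adjusted p = 9.43e-05) rests on these few reads and depends on the pseudocount, and a count of 0 in NPC replicate 1 allows up to 1.86 RPKM (3 reads, counting error only). Fzd4 introns had 1.68 and 0.936 RPKM in NPC, against 0.757 and 0.149 RPKM in ESC, with 20 and 10 reads against 9 and 2, without overlap. Fzd4 overlaps Tmem135 in RefSeq, so these few reads may be shared between the genes.

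The co-receptors varied little. Lrp6 had 81.9 RPKM in NPC and 50.1 RPKM in ESC, with a log2 fold change of 0.57 in the authors' deposited table (adjusted p = 0.0231), and Lrp5 had 30.7 RPKM in NPC and 20.4 RPKM in ESC (log2 fold change 0.47, adjusted p = 0.106 in the authors' deposited table). Lrp6 gave 72.7% of the RPKM of both co-receptors in NPC and 71.1% in ESC. Lrp6 introns had 2.00 and 3.06 RPKM in NPC replicates 1 and 2, against 1.67 and 1.59 RPKM in ESC replicates 1 and 2, and the limma difference of 0.41 (SE 0.217) was not called (adjusted p = 0.142). Lrp5 introns had 0.886 and 0.860 RPKM in NPC, against 0.636 and 0.528 RPKM in ESC, below the level tested.

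The 9 secreted antagonists of the name rule were lower in sum, 34.6 RPKM in NPC and 107 RPKM in ESC. With Frzb, which the rule leaves out and which was higher in NPC, the sums were 75.5 RPKM in NPC and 108 RPKM in ESC. Sfrp1 alone had 71.3 RPKM of the ESC sum. Other extracellular regulators outside the rule were not added. Of 20 tested, Frzb included, 10 were higher and 4 lower in NPC. Igfbp4, Apcdd1 and Draxin had 485, 93.2 and 38.7 RPKM in NPC, against 33.5, 5.89 and 1.80 RPKM in ESC. Notum ran the other way, with 0.259 RPKM in NPC and 15.5 RPKM in ESC. Of the 7 antagonists of the rule that passed the filter of 1 RPKM, Wif1 rose. Sfrp1, Sfrp4, Sfrp5 and Dkk3 fell, and Sfrp2 and Dkk2 were not called. Sfrp1, a secreted protein with a frizzled-like domain that binds Wnt ligands, had 0.367 RPKM in NPC and 71.3 RPKM in ESC, with a log2 fold change of -7.86 in the authors' deposited table (adjusted p = 5.98e-112). Its NPC level was below the 90th percentile of the receptor genes. Sfrp4 had 1.36 RPKM in NPC and 11.0 RPKM in ESC, with a log2 fold change of -3.21 in the authors' deposited table (adjusted p = 6.69e-19). Sfrp5 had 0.110 RPKM in NPC and 2.82 RPKM in ESC, a log2 fold change of -4.45 in the authors' deposited table (adjusted p = 5.63e-06). Sfrp2 had 11.9 RPKM in NPC and 7.55 RPKM in ESC (log2 fold change 0.56, adjusted p = 0.234 in the authors' deposited table) and gave 86.6% of Sfrp RPKM in NPC and 8.15% in ESC, while Sfrp1 gave 2.67% in NPC and 77.0% in ESC. With Frzb counted in this family, Frzb gave 74.8% in NPC and 0.443% in ESC, Sfrp2 gave 21.8% in NPC and 8.11% in ESC, and Sfrp1 gave 0.673% in NPC and 76.6% in ESC.

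Wif1, which binds Wnt proteins directly, had 15.1 RPKM in NPC and 0.197 RPKM in ESC, with a log2 fold change of 5.99 in the authors' deposited table (adjusted p = 6.32e-30). Dkk3, the divergent member of the Dkk family, had 3.79 RPKM in NPC and 10.6 RPKM in ESC (log2 fold change -1.61, adjusted p = 1.47e-05 in the authors' deposited table). Dkk2, a ligand of Lrp5 and Lrp6, had 0.794 RPKM in NPC and 3.88 RPKM in ESC (log2 fold change -1.76, adjusted p = 0.451 in the authors' deposited table). Dkk1 and Dkk4, which block Lrp5 and Lrp6, were below 1 RPKM on average. Of 16 fibroblast markers, 9 were lower and 3 higher in NPC by the authors' deposited table. Over all tested genes, 33.9% were lower and 32.3% higher. The summed exon level of the 16 was 90.4 RPKM in NPC and 341 RPKM in ESC. Their summed intron level was 15.4 and 6.48 RPKM in NPC replicates 1 and 2, against 18.4 and 16.1 RPKM in ESC. These sums rest on few genes: S100a4, Fn1 and Tagln had 145, 98.4 and 36.0 RPKM in ESC exons. Fn1 introns had 11.0 and 11.3 RPKM in ESC replicates 1 and 2, against 1.15 and 0.774 RPKM in NPC. Col1a1, Col1a2 and Col3a1 had between 2.25 and 4.96 RPKM in ESC exons. Their introns had between 0.0987 and 0.303 RPKM in the ESC samples and between 0.108 and 0.949 RPKM in the NPC samples. Of the 3 markers that were higher in NPC, Twist1 had 26.8 RPKM in NPC exons and 6.99 RPKM in ESC exons. Prrx1 and Col5a1 had 9.04 and 10.1 RPKM in NPC exons, against 3.48 and 5.69 RPKM in ESC exons. None of the 16 was at 0 in either cell type, and the part of feeder RNA in the ESC levels of Sfrp1, Sfrp4, Dkk3 and the other members was not tested.

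In introns, Sfrp1 had 0.711 and 0.188 RPKM in NPC replicates 1 and 2, against 1.35 and 1.54 RPKM in ESC replicates 1 and 2, without overlap, and its mean was too low for the test. Sfrp4 introns had 0.916 and 0.330 RPKM in NPC, against 1.75 and 1.32 RPKM in ESC, and the limma difference of -0.66 (SE 0.211) was called (adjusted p = 0.0229). That call was lost without ESC replicate 1 (-0.54) and without NPC replicate 2 (-0.40), fits in which 1 group has no spread of its own. It was also lost with columns centred on their medians (-0.26, adjusted p = 0.565). Introns of Dkk3 and Sfrp5 are too low to read a direction. Dkk3 introns had 0.701 and 0.177 RPKM in NPC, against 0.177 and 0.138 RPKM in ESC, both NPC values below the 90th percentile of the receptor genes in their sample, and Sfrp5 introns had at most 5 reads in any sample.

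The R-spondin branch, which raises frizzled levels on the cell surface, held Lgr5 beside a lower Lgr4 in NPC and mainly Lgr4 in ESC. Lgr5, an R-spondin receptor known as a marker of several adult stem cells, had 16.1 RPKM in NPC and 0.0592 RPKM in ESC, with a log2 fold change of 7.91 in the authors' deposited table (adjusted p = 1.96e-72). This was the largest log2 fold change of the 20 members that rose, and the ESC level was below the 90th percentile of the receptor genes in ESC. Lgr4, the more widely expressed receptor, had 12.5 RPKM in NPC and 42.7 RPKM in ESC, with a log2 fold change of -1.90 in the authors' deposited table (adjusted p = 6.15e-13). Lgr5 gave 56.0% of Lgr RPKM in NPC and 0.137% in ESC, and Lgr4 gave 43.4% in NPC and 98.4% in ESC. Lgr5 introns had 1.46 and 1.37 RPKM in NPC replicates 1 and 2, against 0.111 and 0.0161 RPKM in ESC replicates 1 and 2. Lgr4 introns had 1.39 and 1.32 RPKM in NPC, against 2.58 and 2.72 RPKM in ESC. Neither overlapped between groups, and the Lgr4 difference of -0.63 (SE 0.193) was called by limma (adjusted p = 0.0192). The Lgr4 call was lost with centred columns (-0.23, adjusted p = 0.329). It was also lost without ESC replicate 1 (-0.66) and without ESC replicate 2 (-0.60), fits in which no spread between ESC samples enters.

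Rnf43 and Znrf3, membrane E3 ligases that remove frizzleds from the surface and are held back by R-spondins, both rose. Rnf43 had 2.07 RPKM in NPC and 0.160 RPKM in ESC (log2 fold change 3.46, adjusted p = 1.35e-08 in the authors' deposited table), and Znrf3 had 7.98 RPKM in NPC and 4.61 RPKM in ESC (log2 fold change 0.67, adjusted p = 0.0473 in the authors' deposited table). Znrf3 introns had 1.23 and 0.907 RPKM in NPC replicates 1 and 2, against 1.1 and 1.05 RPKM in ESC replicates 1 and 2, so the groups overlapped (limma difference -0.01, SE 0.179, adjusted p = 0.970). Of the R-spondins, Rspo1 fell, with 1.01 RPKM in NPC and 3.85 RPKM in ESC (log2 fold change -1.92, adjusted p = 0.0107 in the authors' deposited table). Rspo3 had 2.09 RPKM in NPC and 0.551 RPKM in ESC (log2 fold change 1.68, adjusted p = 0.0640 in the authors' deposited table). Rspo2, Rspo4 and Lgr6 were between 0.163 and 0.385 RPKM in NPC and between 0.137 and 0.626 RPKM in ESC.

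Among the cytoplasmic members, Axin2 rose in both exons and introns. Axin2, a scaffold of the complex that degrades beta-catenin and itself a widely used target gene of Wnt signalling, had 35.5 RPKM in NPC and 5.66 RPKM in ESC, with a log2 fold change of 2.51 in the authors' deposited table (adjusted p = 1.16e-19). Its introns had 1.95 and 4.25 RPKM (289 and 565 reads) in NPC replicates 1 and 2, against 0.453 and 0.384 RPKM (67 and 64 reads) in ESC replicates 1 and 2. The groups did not overlap, and limma gave a difference of 1.47 (SE 0.247, adjusted p = 0.000640). Axin1, the constitutive scaffold, fell, with 34.6 RPKM in NPC and 60.5 RPKM in ESC (log2 fold change -0.96, adjusted p = 0.000114 in the authors' deposited table). The sum of both Axin genes was 70.1 RPKM in NPC and 66.2 RPKM in ESC, with Axin2 at 50.7% of it in NPC and 8.55% in ESC. Axin1 introns had 1.18 and 1.26 RPKM in NPC, against 1.63 and 2.12 RPKM in ESC, and the limma difference of -0.36 (SE 0.187, adjusted p = 0.127) was not called and took the other sign, 0.03, with columns centred on their medians.

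The dishevelled genes, whose proteins relay the signal from the receptors, shifted among themselves. Dvl2 fell, with 17.6 RPKM in NPC and 33.0 RPKM in ESC (log2 fold change -1.01, adjusted p = 0.000378 in the authors' deposited table). Dvl1 rose, with 23.1 RPKM in NPC and 8.73 RPKM in ESC (log2 fold change 1.26, adjusted p = 4.77e-05 in the authors' deposited table), as did Dvl3, with 11.9 RPKM in NPC and 4.25 RPKM in ESC (log2 fold change 1.36, adjusted p = 2.34e-05 in the authors' deposited table). The sum was 52.6 RPKM in NPC and 46.0 RPKM in ESC, Dvl2 giving 33.6% of it in NPC and 71.8% in ESC. Their introns did not separate in the same way, and Dvl1 overlaps Tas1r3 in RefSeq. Dvl1 introns had 2.35 and 7.47 RPKM in NPC replicates 1 and 2, against 3.35 and 4.03 RPKM in ESC replicates 1 and 2, and Dvl3 introns had 1.55 and 2.81 RPKM in NPC, against 2.13 and 2.08 RPKM in ESC. Both overlapped because NPC replicate 1 was below and NPC replicate 2 above the ESC samples. Dvl2 introns had 2.09 and 5.33 RPKM in NPC, against 6.35 and 7.13 RPKM in ESC, without overlap, and limma called none of the 3 (adjusted p = 0.731 for Dvl1, 0.137 for Dvl2 and 0.987 for Dvl3). Leaving out NPC replicate 2 turned Dvl1 to -0.48 and Dvl3 to -0.28, and gave Dvl2 -1.32. Leaving out NPC replicate 1 gave Dvl1 0.86, so its sign depends on which NPC sample is kept. With 1 NPC sample left, no spread between NPC samples enters the fit.

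The Tcf/Lef factors, which carry beta-catenin to its target genes, summed to 17.0 RPKM in NPC and 23.1 RPKM in ESC. Tcf7l2 rose, with 6.26 RPKM in NPC and 1.16 RPKM in ESC and a log2 fold change of 2.30 in the authors' deposited table (adjusted p = 4.46e-13). Tcf7 fell, with 1.37 RPKM in NPC and 11.1 RPKM in ESC and a log2 fold change of -3.10 in the authors' deposited table (adjusted p = 5.39e-14). Tcf7l1 was not called, with 9.05 RPKM in NPC and 9.46 RPKM in ESC (log2 fold change -0.14, adjusted p = 0.755 in the authors' deposited table). Lef1, most often an activator, had 0.282 RPKM in NPC and 1.36 RPKM in ESC, a mean below 1 RPKM (log2 fold change -2.49, adjusted p = 0.00155 in the authors' deposited table). As shares of the family, Tcf7l1 had 53.4% in NPC and 41.0% in ESC, Tcf7l2 had 36.9% in NPC and 5.04% in ESC, and Tcf7 had 8.09% in NPC and 48.1% in ESC.

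Introns of Tcf7l2 had 1.17 and 1.39 RPKM in NPC replicates 1 and 2, against 0.464 and 0.380 RPKM in ESC replicates 1 and 2, and those of Tcf7 had 0.616 and 0.172 RPKM in NPC, against 0.736 and 0.681 RPKM in ESC. Neither overlapped, both in the direction of the exons. Tcf7l1 introns had 1.34 and 1.50 RPKM in NPC, against 0.962 and 0.942 RPKM in ESC, and the limma difference of 0.31 (SE 0.175) was not called (adjusted p = 0.162). Tcf7 overlaps Skp1 in RefSeq, and whether counting used strand is not given, so their reads may not be separate.

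**Figure D2:**
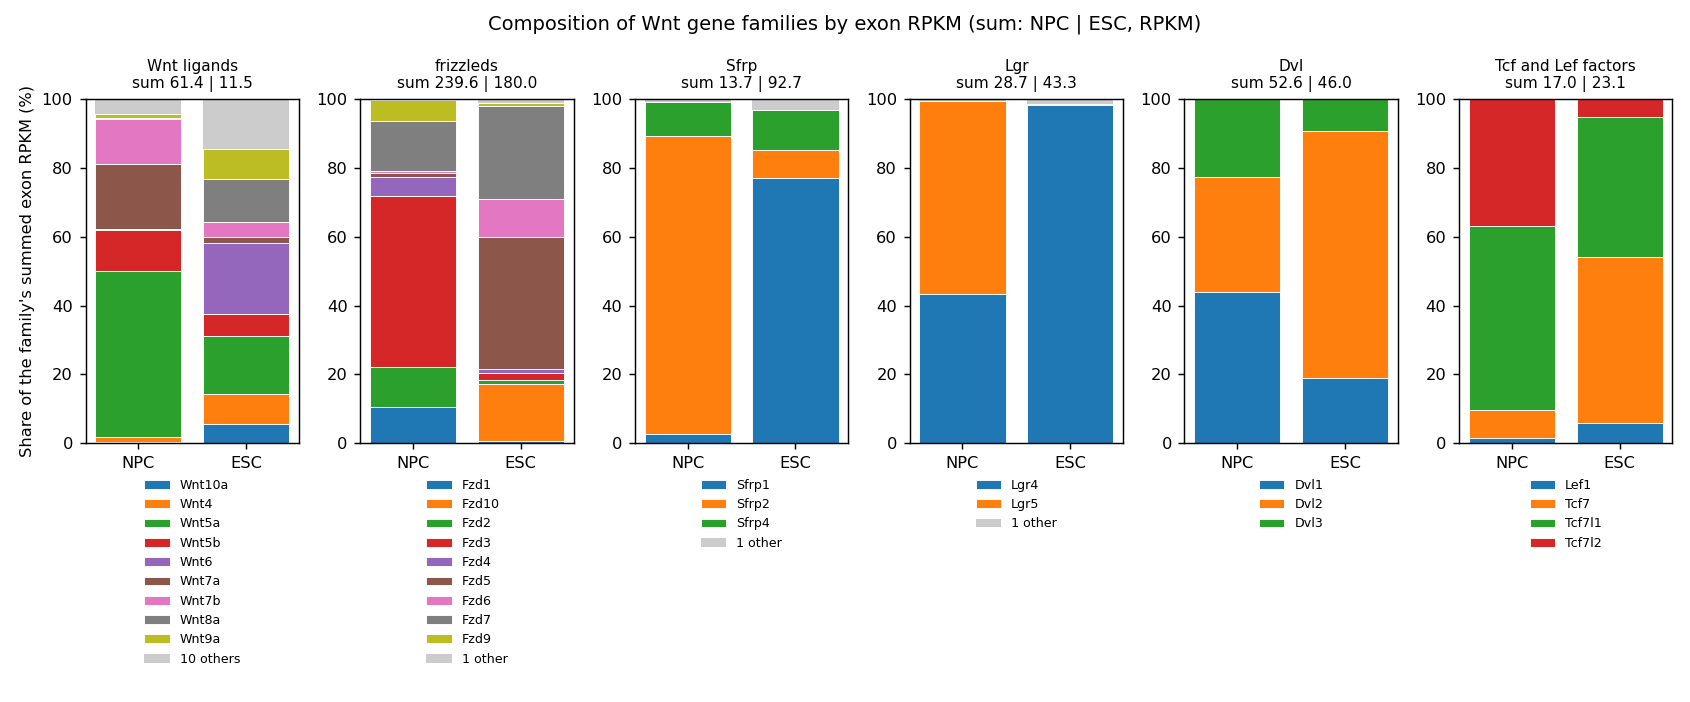
Make-up of 6 families as stacked shares (%) of the family's summed exon RPKM, NPC left of ESC in each panel, with the sums in RPKM above the bars and members under 4% in both cell types joined in grey. Fzd3 takes 49.7% of frizzled RPKM in NPC and 2.27% in ESC, Lgr5 takes 56.0% of Lgr RPKM in NPC and 0.137% in ESC, and Tcf7l2 takes 36.9% of Tcf/Lef RPKM in NPC and 5.04% in ESC.

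In introns, 15 members had a mean of at least 1 RPKM; Axin2, Fzd3 and Wls were called higher and Fzd5, Fzd6, Lgr4 and Sfrp4 lower in NPC, and 8 were not called. Over all 8811 genes tested, limma called 13.2% higher, 34.0% lower and 47.3% either way, and the median difference was -0.43 over all genes and 0.01 over the 15 members. All 7 called members had the same call in exons, and 14 of the 15 were called in exons. Axin2, Fzd3, Wls, Fzd5 and Fzd6 kept their calls under all 13 alternatives run. Without NPC replicate 1, the differences of Dvl1, Lrp6, Porcn and Tcf7l1 were 0.86, 0.62, 0.96 and 0.36, against 0.19, 0.41, 0.62 and 0.31 with all samples. The median over all genes was then -0.23, against -0.43. Centring the columns on their medians moved the median of all genes by 0.40. The share of calls that were higher became 50.2%, against 28.0% as deposited. Under centring, 6 members were called higher (Axin2, Fzd3, Lrp6, Porcn, Tcf7l1 and Wls) and 2 lower (Fzd5 and Fzd6). Over all 8811 genes tested, centring gave 2185 higher and 2165 lower calls.

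Lowering the minimum mean to 0.1 RPKM let 53 members into the test, of which 9 were called higher and 5 lower, against 11.5% higher and 16.5% lower among the 18070 genes then tested. With no minimum at all, Wnt7a, Fzd4, Lgr4 and Sfrp4 were not among the calls. The members added at 0.1 RPKM were Dkk1, Fzd4, Lgr5, Tcf7l2, Wnt5a and Wnt7a, all higher, and Sfrp1, lower. Lgr5 had a difference of 1.18 (SE 0.220, limma adjusted p = 9.43e-05) and Wnt5a one of 1.03 (SE 0.208, limma adjusted p = 0.000282). Tcf7l2 had 0.68 (SE 0.200, limma adjusted p = 0.00950), Wnt7a 0.78 (SE 0.289, limma adjusted p = 0.0418) and Sfrp1 -0.78 (SE 0.207, limma adjusted p = 0.00451). Dkk1 rested on 12 and 5 intron reads in NPC replicates 1 and 2, against 0 reads in both ESC samples, where 0 reads allow up to 0.378 and 0.335 RPKM (3 reads per library, counting error only).

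**Figure D3:**
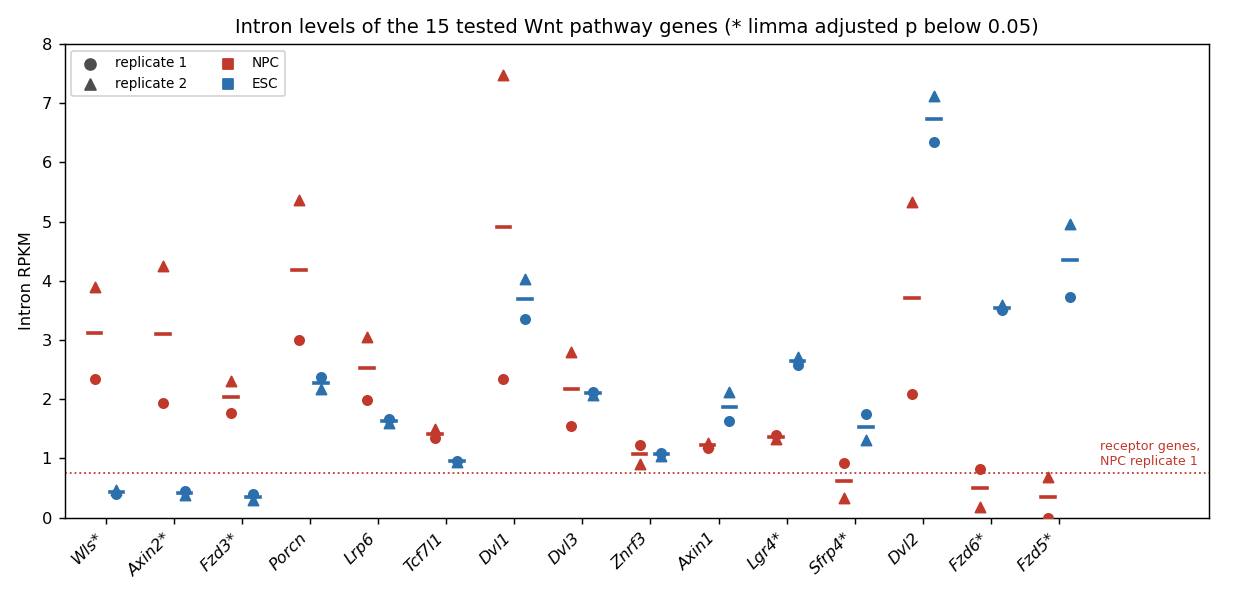
Intron RPKM of the 15 tested members in each sample, NPC in red to the left of ESC in blue, circles for replicate 1, triangles for replicate 2 and bars for means; the dotted line is the median of receptor gene introns in NPC replicate 1, 0.748 RPKM. NPC replicate 2 is above NPC replicate 1 for Wls, Axin2, Porcn, Dvl1 and Dvl2, among others, and in these 5 genes the ESC samples lie closer together than the NPC samples.

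Sample order in introns was read for all 54 listed members. Both NPC samples were above both ESC samples in 32, both below in 8, and 14 overlapped, against 42.4% above and 29.2% below over 18393 genes. Of the 17 members with introns that rose in exons, 14 were above and 3 overlapped. Of the 12 that fell in exons, 8 were below, 2 overlapped and 2 were above, Dkk3 and Sfrp5, whose NPC values lay under the receptor genes' 90th percentile of their sample. All 5 with introns that were not called in exons, and 11 of the 20 below 1 RPKM in exons, were above in NPC. In each of those 20 NPC replicate 1 exceeded NPC replicate 2, and how often other low genes had that order was not counted. At or below the receptor genes' 90th percentile were 37 of 54 members in NPC replicate 1 and 28 of 54 in NPC replicate 2, and 16 exceeded it in both. How far this background sets the higher position of low members in NPC was not tested.

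The rest of the pathway is given from 5 lists of related genes, tested by the authors' deposited table at the same filter. Together 77 of their 116 places were called (66.4%), against 66.2% of all tested genes. Of 19 tested target genes of Wnt signalling, 9 were higher and 5 lower (median log2 fold change 0.67 in the authors' deposited table), a share called of 73.7%, and 8 of the 29 on the list are also members. Those with the largest changes among the higher were Lgr5, Emx2 (a cortical patterning factor, 10.9 RPKM in NPC and 0.217 RPKM in ESC) and Nkd1 (a feedback inhibitor, 28.9 RPKM in NPC and 0.755 RPKM in ESC). Those among the lower were Bmp4 (a BMP ligand, 0.353 RPKM in NPC and 46.6 RPKM in ESC), Notum (an esterase that inactivates Wnt proteins, 0.259 RPKM in NPC and 15.5 RPKM in ESC) and Ascl2 (a transcription factor of intestinal stem cells and trophoblast, 0.309 RPKM in NPC and 4.00 RPKM in ESC).

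Of 20 tested extracellular regulators outside the name rule, 10 were higher and 4 lower, 70.0% in all (median log2 fold change 0.62 in the authors' deposited table). Ndp, which encodes the Fzd4 ligand norrin, had 27.9 RPKM in NPC and 0.0911 RPKM in ESC (log2 fold change 7.97 in the authors' deposited table). Tspan12, a co-receptor for norrin with Fzd4, had 159 RPKM in NPC and 0.969 RPKM in ESC (log2 fold change 7.20 in the authors' deposited table). Ndp, Tspan12 and Fzd4 were thus all higher in NPC. Frzb had 40.8 RPKM in NPC and 0.412 RPKM in ESC (log2 fold change 6.40 in the authors' deposited table), the opposite direction to Sfrp1. Sulf1, a sulfatase that edits heparan sulfate, had 0.579 RPKM in NPC and 35.0 RPKM in ESC, and Gpc4, a heparan sulfate proteoglycan, had 1.92 RPKM in NPC and 13.7 RPKM in ESC (log2 fold changes -5.87 and -2.92 in the authors' deposited table).

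Among 32 tested genes of the beta-catenin destruction complex and its scaffold, 11 were higher and 5 lower, 50.0% against the 66.2% of all genes (median log2 fold change 0.16 in the authors' deposited table). Ctnnb1, which encodes beta-catenin, had 797 RPKM in NPC and 658 RPKM in ESC and was not called (log2 fold change 0.13, adjusted p = 0.631 in the authors' deposited table). Beside Nkd1, Apc2 had 4.23 RPKM in NPC and 0.221 RPKM in ESC and Cxxc4, which binds dishevelled, had 3.04 RPKM in NPC and 0.211 RPKM in ESC (log2 fold changes 4.15 and 3.66 in the authors' deposited table). Dact2, also a dishevelled partner, had 0.254 RPKM in NPC and 22.2 RPKM in ESC, Amer1 had 11.8 RPKM in NPC and 41.1 RPKM in ESC, and Usp34 had 34.1 RPKM in NPC and 54.6 RPKM in ESC (log2 fold changes -6.40, -1.93 and -0.84 in the authors' deposited table). Of 24 tested nuclear cofactors, 11 were higher and 7 lower, 75.0% in all (median log2 fold change 0.24 in the authors' deposited table). Genes of the Tle family split. Tle2 had 11.5 RPKM in NPC and 0.203 RPKM in ESC and Tle6 had 34.8 RPKM in NPC and 1.50 RPKM in ESC. Tle4 had 17.7 RPKM in NPC and 69.6 RPKM in ESC. The log2 fold changes of Tle2, Tle6 and Tle4 were 5.62, 4.37 and -2.09 in the authors' deposited table. Pygo1, a co-activator of beta-catenin, had 23.2 RPKM in NPC and 1.53 RPKM in ESC, and the co-repressor Ctbp2 had 28.2 RPKM in NPC and 108 RPKM in ESC; Ruvbl2, an ATPase, had 41.4 RPKM in NPC and 150.0 RPKM in ESC (log2 fold changes 3.74, -2.09 and -1.96 in the authors' deposited table).

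Among 21 tested genes of planar polarity and alternative receptors, 12 were higher and 3 lower, 71.4% in all (median log2 fold change 1.01 in the authors' deposited table). Celsr2, an atypical cadherin of planar polarity, had 18.6 RPKM in NPC and 0.999 RPKM in ESC, Wdpcp had 6.05 RPKM in NPC and 0.344 RPKM in ESC, and Ror1, a receptor for Wnt5a, had 5.50 RPKM in NPC and 0.336 RPKM in ESC (log2 fold changes 4.11, 3.96 and 3.87 in the authors' deposited table). Vangl1, a core planar polarity protein, had 7.63 RPKM in NPC and 37.8 RPKM in ESC, Ankrd6 had 5.72 RPKM in NPC and 12.0 RPKM in ESC, and Rhoa had 122 RPKM in NPC and 172 RPKM in ESC (log2 fold changes -2.39, -1.26 and -0.64 in the authors' deposited table). Astrocyte markers also rose in NPC, 4 of 5 tested, with a sum over the 6 listed of 503 RPKM in NPC and 4.92 RPKM in ESC, in introns 7.77 and 12.3 RPKM in NPC replicates 1 and 2 against 0.669 and 0.363 RPKM in ESC replicates 1 and 2. None of the 6 was at 0, and their part in the higher Wnt members was not tested. Of 6 tested neuron markers, 2 were higher and 4 lower in NPC. Map2 had 371 RPKM in NPC and 2.14 RPKM in ESC, and Stmn2 had 0.792 RPKM in NPC and 160 RPKM in ESC. All 3 tested choroid plexus markers were lower in NPC. Of 2 tested endoderm markers 1 was higher and 1 lower, and of 2 tested mesoderm markers 1 was lower and 1 not called. The part of such cells in either cell type was not tested.

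**Figure D4:**
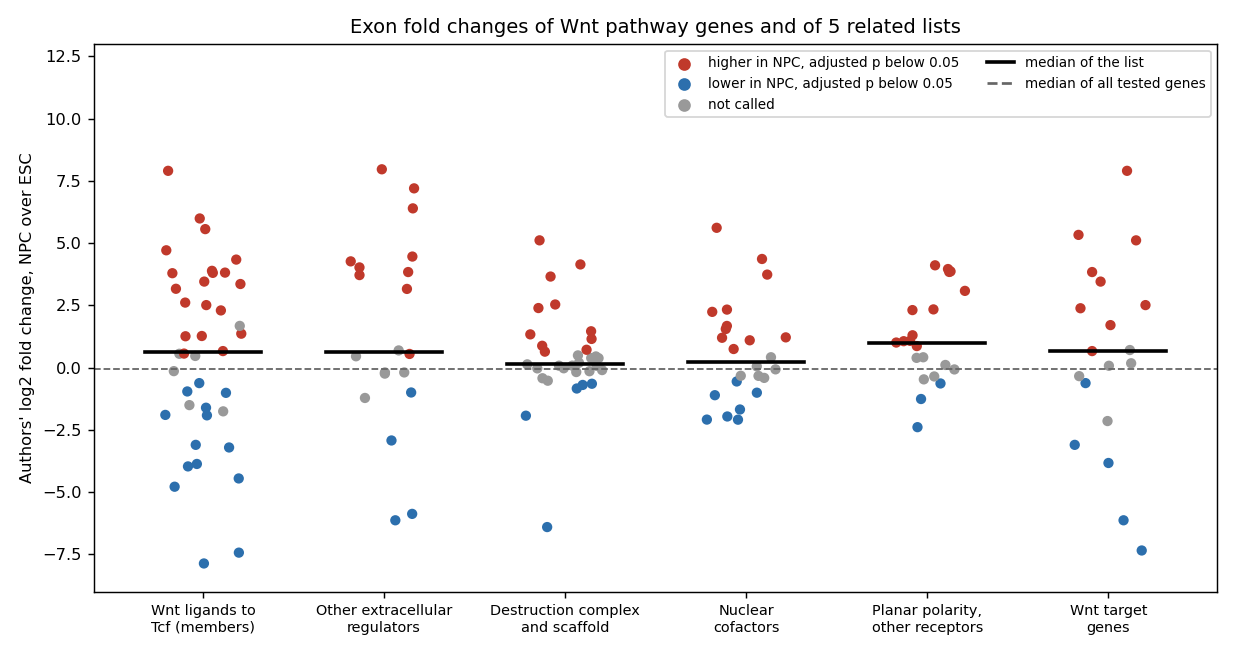
Log2 fold changes of NPC over ESC from the authors' deposited table for each tested gene of the members and of 5 related lists, red for genes called higher, blue for genes called lower and grey for genes not called; black bars are list medians and the dashed line is the median of all tested genes, -0.07. The members spread from -7.86 for Sfrp1 to 7.91 for Lgr5, and the destruction complex list has its median at 0.16.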

How the data were processed

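RNA-seq of NPC and ESC was read from 2 deposited tables. Per the submitters' processing notes, the tools included DESeq2 1.10.0 and the build was mm9. The aligner, the counter, the annotation and any use of strand were not given in the sources used here. In the exon table stand RPKM that the authors pooled per cell type, and the authors' own log2 fold changes and adjusted p-values, which were used as deposited. The direction of the fold changes was checked against the RPKM columns. The intron table holds 1 deposited value per biological replicate, technical libraries combined by the authors; its unit, RPKM, was inferred from the values, which were whole multiples of 1 read for 100% of the 18393 genes above 0 (tolerance 0.001 reads, 1637 of them with more than 1 possible intron length). Genes without a name, 84 in exons and 64 in introns, and 2350 exon genes without an adjusted p-value stayed out.

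Introns were tested with limma 3.58.1 in R 4.3.3 on log2(RPKM + 1), with a mean-variance trend, for genes averaging 1 RPKM or more, NPC minus ESC, Benjamini-Hochberg adjusted over all tested genes at 0.05. This scale understates the change of low genes. The fit was tested on simulated data. As alternatives, the pseudocount, the filter, the trend, the scaling, a limma voom fit to recovered reads, a replicate block and the removal of each sample were tried; subtracting the level of receptor genes was chosen after seeing the data. Cell types share replicate numbers 1 and 2, which no label ties to a shared batch; same-numbered samples had a correlation of deviations of 0.02, so the numbers were not taken to pair them.

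Every member is accounted for by role. Members with a mean exon level of at least 1 RPKM are named with their values and the others are given by range, or named where introns pass a test. Of each related list, up to 3 called genes of largest change in each direction are named, plus Ctnnb1. Igfbp4, Apcdd1 and Draxin are also named, beside the secreted antagonists. The name rule and the lists were chosen with earlier results of these data known; the rule itself uses no measured value. RefSeq promoter windows and gene spans use GRCm38.p6 and were joined by gene name only, never by mm9 position.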

Additional observations from a re-analysis of the deposited data

How the results depend on the processing

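Of 195 values of the 15 tested members in introns under 13 alternatives, 159 kept their direction and side of the threshold, 13 lost the call (Lgr4 in 7 alternatives and Sfrp4 in 6), 12 gained one and 11 changed sign. The number of members called, 7, became 14 with a minimum mean of 0.1 RPKM and ranged from 5 to 11 with 1 sample left out. The number of genes called, 4165, became 2728 with the receptor gene level subtracted and was 1686 without ESC replicate 1, 1594 without ESC replicate 2, 6192 without NPC replicate 1 and 6574 without NPC replicate 2; the lone sample is then assumed to vary like the other group. Higher calls, 1167 as deposited, became 2083 with that lower minimum, 753 without the trend, 2185 with centred columns, 2733 with quantile normalization and 507 with the receptor gene level subtracted. With a replicate block, which pairs equal replicate numbers, 3777 genes and 7 members were called, the same 7 members as without it. Sign changes concerned 4 members that were not called. Dvl3 was -0.0097 with a pseudocount of 0.1, -0.0198 with voom and -0.25 with the receptor level subtracted, and lay between -0.28 and 0.29 with 1 sample left out. Axin1 was 0.0331 with centred columns. Znrf3 was 0.39 with centred columns and 0.0909 with quantile normalization, and lay between -0.12 and 0.10 with 1 sample left out. Dvl1 lay between -0.48 and 0.86 with 1 sample left out. The cause was not tested.

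In exons, a minimum mean of 10 RPKM left 16 members called, 8 higher and 8 lower, against 34, 20 higher and 14 lower, because fewer genes were tested. A minimum change of 2-fold left 30, 18 higher and 12 lower. Calls over the 5 lists, 77, lay between 52 and 82; with a mean of 10 RPKM the target genes had 7 calls against 14 and the planar polarity genes 7 against 15, and at 2-fold the destruction complex had 10 against 16. Exon values have no replicate spread, so no sample could be left out there, and the depth of introns limits short genes such as Fzd5.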
